A study of Mus musculus with 16 samples.

Results

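Liver RNA of mice kept on an intermittent diet (INT) was set against that of calorie restricted mice (CR), whose feed was restricted on different schedules. The 8 arrays were chosen by the diet in the sample labels, 4 INT and 4 CR of 16 arrays in all, with 1 mouse on each array. The whole study held 4 diets and 4 mice per diet, and it asked how a weekly alternation of feeding bears on the liver and on its response to an agonist of the nuclear receptor PPARα. All were male C57BL/6J mice on their diets from 9 weeks until 12 months of age, housed individually. INT mice alternated weekly between ad libitum feeding of a medium-fat diet (25% of energy as fat) and a 40% reduction, and they were killed in a medium-fat week. CR portions were set at 30% less energy than control mice took in, and were given daily all along, as a control diet enriched in vitamins and minerals. In the intake that the paper reports, CR mice stood further below control mice than that. INT mice took in more energy than CR mice and less than control mice, so the diets differed in energy as well as in schedule. MF mice had the medium-fat diet and C mice the control diet AIN-93W, both ad libitum. Because INT mice were killed in a medium-fat week, the alternating history and the last week's feed cannot be told apart. That feed also held more fat than the feed of CR mice.

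Each diet held a high and a low body weight class, and each class 1 mouse gavaged with 160 mg/kg of Wy-14643 (Wy), the PPARα agonist, and 1 with 0.5% carboxymethyl cellulose only (mock). All mice were fasted for 4 h before the gavage and for 6 h after it. The study gave the CR portion at a set time each day, so the last meal before the fast may have differed in time between the diets. This was not tested. INT and CR were therefore balanced over treatment and body weight class, and 4 matched comparisons of 1 INT mouse with 1 CR mouse could be drawn. Every diet has its own high and low class, so the classes need not match weights across diets. The paper reports that INT mice on average stayed heavier than CR mice even after a restricted week. Diet and body weight thus cannot be told apart between INT and CR. Values on the 4 arrays of a diet are given throughout in the order high body weight Wy, high body weight mock, low body weight Wy and low body weight mock. They are log2 intensities, a change is INT minus CR in log2 units, and its error is the standard error (SE) of the fitted model. The labels carry an array plate code, and the 2 INT high body weight arrays had another code than the remaining 14.

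In rodents the pituitary releases growth hormone in pulses in males and more steadily in females, and the liver reads this pattern through STAT5, which sets a large group of male-biased and female-biased genes. Feeding raises insulin, and the transcription factors SREBP1c and ChREBP then drive the making of fatty acids, while SREBP2 drives the making of cholesterol when sterols are scarce. Fasting calls on gluconeogenesis and on fatty acid oxidation, for which PPARα is the main switch.

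The medians of the 8 arrays lay between 7.07 and 7.19, and correlations between arrays over all tested genes were 0.977 to 0.994 among INT, 0.986 to 0.995 among CR and 0.970 to 0.989 between INT and CR. The root-mean-square difference was 0.240 to 0.443 among INT, 0.212 to 0.348 among CR and 0.311 to 0.506 between the diets. The 8 hepatocyte markers had list means of 12.8 to 12.9 in INT and 12.9 to 13.1 in CR, so the tissue was liver on every array, and 2 of them, Tat and Cps1, were called lower in INT. Kupffer cell markers averaged 8.62 to 9.20 in INT and 8.34 to 8.96 in CR, and 0 of 10 were called. In whole liver, fewer cells of a type and less RNA per cell cannot be told apart.

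Of 14275 genes tested, 1406 (9.85%) differed between INT and CR at an adjusted p under 0.05 (limma, Benjamini-Hochberg), 795 of them higher in INT (5.57%) and 611 lower (4.28%). At least 2-fold differences numbered 68 among the higher and 92 among the lower genes. The sign was the same in all 4 matched comparisons for 1344 of the called genes. These comparisons use the arrays that gave the calls, so the count is no separate evidence. For 1477 genes (10.3%) the 4 INT arrays did not overlap with the 4 CR arrays. The share of higher genes among those called was 56.5%, and 41.9% once each array was centred on its median, so which direction held more genes depended on that step. The median change of all genes was 0.00805, and -0.0291 after centring. Within the first plate alone, where the 2 low body weight INT arrays met all 4 CR arrays, 166 genes were higher (1.16%) and 212 lower (1.49%). Without the high body weight mock INT array the count was 865.

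The largest differences lay in genes whose liver expression is sex-biased in mice. Of 26 male-biased genes tested, 21 were higher in INT and 0 lower, with a median change of 1.13, and of 31 female-biased genes 19 were lower and 1 higher, with a median of -0.67, against a median near 0 over all genes. All mice were male, so these counts compare male livers with male livers. Both groups kept their direction within the first plate, where 8 male-biased genes were higher and 14 female-biased genes lower. Leaving out single arrays gave 16 to 22 male-biased genes higher and 14 to 17 female-biased genes lower.

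Among the female-biased genes, the Cyp2b enzymes of drug and steroid metabolism stood at the head. Cyp2b13 read 3.59, 3.39, 3.40 and 3.39 on the INT arrays, against 10.90, 10.59, 10.46 and 10.33 on the CR arrays. All 4 INT values were at the low end of the array's range, under the intensity of 20 that a gene had to exceed on 5 arrays to be tested (the filter), and all 4 CR values lay far above them, so the fold is a bound of at least 76.1-fold lower in INT (log2 change -7.13 ± 0.56, limma adjusted p = 1.01e-05). Its neighbour Cyp2b9 read 9.86, 9.58, 6.45 and 8.47 on the INT arrays, against 12.43, 12.46, 12.30 and 12.33 on the CR arrays. Every CR value was within a narrow band above every INT value, while the INT arrays spread widely, and the difference was 13.8-fold (-3.79 ± 0.58, adjusted p = 0.00137). In MF and C the mean of Cyp2b13 was 4.69 ± 1.86 and 4.00 ± 0.84, and that of Cyp2b9 10.22 ± 2.00 and 10.22 ± 1.99 (SD, n = 4 each). Cyp2b9 differed by body weight there. MF mice read 11.8 and 12.1 at high and 8.6 and 8.4 at low body weight. C mice read 11.9 and 11.9 at high and 8.3 and 8.7 at low body weight. Probes may read near-identical copies of this family together. The 100 bases upstream of the start in the promoter record used for each gene, on chromosome 7, are shown because both genes moved together. These stretches are the same in all 100 positions (RefSeq, GRCm38.p6, plus strand, 5′ to 3′). The annotated gene spans begin at 26061388 for Cyp2b13 and 26173350 for Cyp2b9, so the stretches lie wholly or partly within them.
Cyp2b13, chr7:26061395-26061494: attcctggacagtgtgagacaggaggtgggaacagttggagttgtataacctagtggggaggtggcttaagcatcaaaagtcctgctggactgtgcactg
Cyp2b9, chr7:26173309-26173408: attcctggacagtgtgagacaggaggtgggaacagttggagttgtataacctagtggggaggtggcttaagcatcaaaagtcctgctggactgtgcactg
Over 250 bases upstream, 248 were identical (99.2%). The transporters Slc22a26 and Slc22a27, described next, were also both lower in INT, but matched in only 68 of 250 positions (27.2%), compared without gaps. Whether shared upstream bases bear on these levels was not tested.

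The organic ion transporters Slc22a26 and Slc22a27 followed. Slc22a26 read 5.10, 5.91, 5.30 and 6.21 on the INT arrays, against 10.23, 9.18, 7.74 and 11.44 on the CR arrays. The CR arrays varied over several log2 units but none came near an INT array, a difference of 16.2-fold (-4.02 ± 0.54, adjusted p = 0.000566). Slc22a27, its close relative, was 10.3-fold lower (-3.36 ± 0.34, adjusted p = 6.89e-05). Slco1a4, an uptake carrier for organic anions and bile acids, was 4.17-fold lower (-2.06 ± 0.20, adjusted p = 5.06e-05). Cyp2c39, a female-biased P450 of the Cyp2c family, read 7.09, 7.82, 7.11 and 7.63 on the INT arrays, against 9.23, 9.56, 8.83 and 9.35 on the CR arrays. Wy arrays of INT were the lowest and no INT array reached a CR array, a difference of 3.56-fold (-1.83 ± 0.14, adjusted p = 7.52e-06). Hao2, a peroxisomal hydroxyacid oxidase, changed by -2.15 ± 0.31 (adjusted p = 0.000871), and with 3 of its 4 INT values raised to the filter, under which they lay, the difference was 3.18-fold. Cyp2a22 changed by -2.30 ± 0.49 (adjusted p = 0.00991), and its call was lost within the first plate (-1.66, adjusted p = 0.178). The flavin monooxygenases Fmo2 (-1.30 ± 0.18) and Fmo4 (-0.95 ± 0.15) and the lipoprotein receptor Vldlr (-1.17 ± 0.16) completed the called members described here. The 1 female-biased gene that was higher was Slc22a30, in contrast to Slc22a26 and Slc22a27, and it was not called in any fit that left out 1 array.

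The male-biased genes went the other way. Cyp4a12a, a hydroxylase of arachidonic acid, read 11.99, 12.05, 12.20 and 12.00 on the INT arrays, against 7.59, 7.27, 8.07 and 4.66 on the CR arrays. The INT arrays were almost level, and the CR arrays lay far below them with the low body weight mock array lowest, a difference of 35.8-fold (5.16 ± 0.47, adjusted p = 3.38e-05). Its near-identical copy Cyp4a12b gave 5.07 ± 0.50 (adjusted p = 5.5e-05), and the probes may not tell the copies apart. Slco1a1, an organic anion carrier, read 10.90, 11.71, 11.29 and 11.63 on the INT arrays, against 4.80, 8.96, 7.91 and 4.93 on the CR arrays. Among CR the high Wy and low mock arrays were the lowest by several log2 units, and every CR array was below every INT array (26.6-fold, 4.73 ± 0.88, adjusted p = 0.00492). Hsd3b5, a steroid 3-ketoreductase, read 7.13, 10.79, 8.59 and 11.42 on the INT arrays, against 3.35, 4.73, 3.79 and 4.00 on the CR arrays. Mock arrays were higher than Wy arrays among INT, and 3 of the CR values were under the filter. With those raised to the filter INT was 33.3-fold higher, and the fit on the values as deposited gave 5.51 ± 1.05 (adjusted p = 0.00548). For Hsd3b5, MF mice read 4.1 and 3.5 at high and 7.2 and 11.5 at low body weight, so the former lay within the CR range. C mice read 5.4 and 6.7 at high and 9.0 and 11.1 at low body weight. Serpina4-ps1, annotated as a pseudogene of the serpin family, read 11.53, 10.36, 11.80 and 10.62 on the INT arrays, against 4.53, 5.43, 5.43 and 4.59 on the CR arrays. It was 67.8-fold higher in INT (6.08 ± 0.89, adjusted p = 0.000983), with the means of MF and C between the diets at 8.90 ± 2.71 and 8.63 ± 1.54 (SD, n = 4 each). The MF mice read 6.9 and 6.3 at high and 10.5 and 11.8 at low body weight, so the latter reached the INT level.

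Further male-biased genes rose by smaller amounts. Cyp7b1, an oxysterol hydroxylase, was 4.34-fold higher (2.12 ± 0.27, adjusted p = 0.000341). Elovl3, an elongase of very long chain fatty acids, changed by 2.26 ± 0.48 (adjusted p = 0.00964), and Cyp2d9, a steroid hydroxylase, by 1.08 ± 0.21 (adjusted p = 0.00687). The major urinary proteins Mup6 (2.94 ± 0.53) and Mup21 (2.18 ± 0.44), which carry pheromones, were higher as well, with the reservation that Mup genes are nearly identical in sequence. Cyp2f2, a periportal P450, changed by 0.57 ± 0.10 (adjusted p = 0.00334). Within the first plate Hsd3b5 (adjusted p = 0.117), Slco1a1 (0.0971), Elovl3 (0.112), Mup21 (0.14) and Cyp2d9 (0.0763) kept their direction but not their call.

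**Figure D1:**
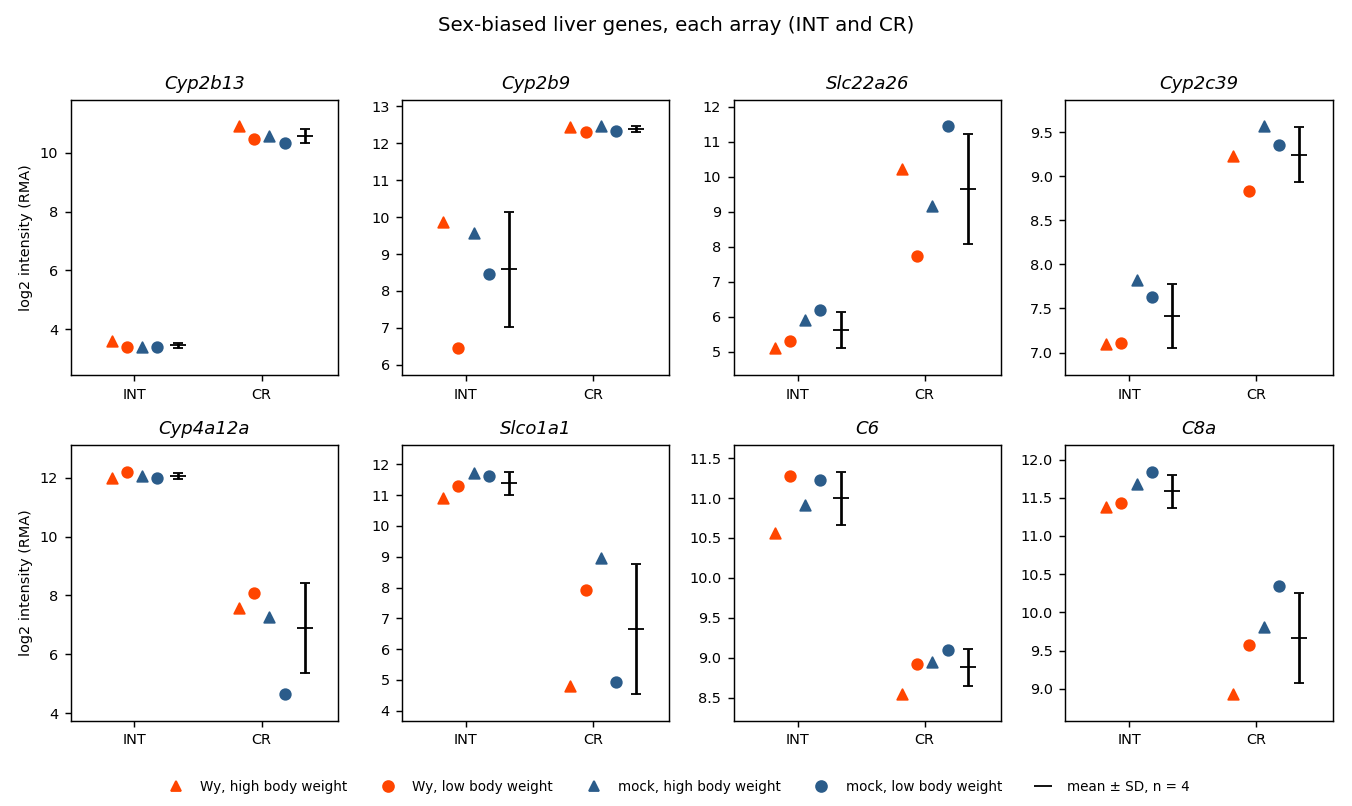
Log2 intensity of 8 genes on the 4 INT and the 4 CR arrays, with each array as a point, triangles for high and circles for low body weight, orange for Wy and blue for mock, and the mean ± SD at the right of each diet. In each of the 8 panels the INT points lie wholly below (Cyp2b13, Cyp2b9, Slc22a26, Cyp2c39) or wholly above (Cyp4a12a, Slco1a1, C6, C8a) the CR points.

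Complement genes made up part of the male-biased group. C6, a pore-forming component of the membrane attack complex, read 10.56, 10.92, 11.28 and 11.22 on the INT arrays, against 8.55, 8.94, 8.93 and 9.10 on the CR arrays. It was 4.34-fold higher in INT with no overlap (2.12 ± 0.12, adjusted p = 1.61e-06), and the 4 matched differences were nearly alike. C8a, which joins the same complex, read 11.38, 11.68, 11.43 and 11.84 on the INT arrays, against 8.93, 9.81, 9.57 and 10.35 on the CR arrays. It was higher on every INT array (3.78-fold, 1.92 ± 0.12, adjusted p = 3.26e-06), and its partner C8b gave 1.39 ± 0.21 (adjusted p = 0.00119). Of 30 complement and coagulation genes tested, 7 were higher in INT and 0 lower, with a median change of 0.06. Besides those above they included C9 (0.94 ± 0.18), the last component of the pore, Mbl1 (0.81 ± 0.07), a lectin that starts complement activation, coagulation factor F11 (0.80 ± 0.18) and C2. C6, C8a and C8b are also entries of the male-biased list, so the lists are not separate counts. The remaining 23 genes did not pass the test. C9 (adjusted p = 0.0761) and F11 (0.106) were not called within the first plate.

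Of 26 genes of growth hormone and IGF1 signalling, 2 were higher and 3 lower, with a median change of 0.14, against 5.57% higher and 4.28% lower over all genes. Such small counts set the list little apart from all genes, and within the first plate 0 were higher and 1 lower. Stat5a, a transducer of the growth hormone receptor, was higher (0.58 ± 0.12, adjusted p = 0.00732), a call lost within the first plate (0.48, adjusted p = 0.104). Igf1, the main circulating growth factor made in response to growth hormone, read 12.22, 12.05, 12.04 and 12.02 on the INT arrays, against 11.62, 11.94, 11.72 and 11.91 on the CR arrays. The INT arrays were slightly above the CR arrays (0.28 ± 0.08, adjusted p = 0.0386), but the call was lost within the first plate (adjusted p = 0.301) and kept in only 2 of 8 fits that left out 1 array, with changes of 0.21 to 0.33. Igfbp1, a binding protein that restrains IGF1 and rises in fasting, read 10.19, 9.32, 10.07 and 9.62 on the INT arrays, against 12.13, 11.73, 11.93 and 11.87 on the CR arrays. All CR arrays lay above all INT arrays, and INT was 4.33-fold lower (-2.11 ± 0.42, adjusted p = 0.00697), a call lost within the first plate (-1.82, adjusted p = 0.131). At high body weight MF mice read 11.6 and 11.2 for Igfbp1, near the CR arrays, and C mice 10.0 and 9.8. Lepr, the leptin receptor, read 9.46, 7.84, 9.62 and 8.19 on the INT arrays, against 10.14, 10.36, 10.73 and 9.97 on the CR arrays. Among INT the mock arrays were lower than the Wy arrays, and INT was 2.88-fold lower than CR (-1.53 ± 0.36, adjusted p = 0.0167). That call was lost without the INT high mock, INT low mock or CR high mock array (-1.83 to -1.23 over all 8 such fits). The third lower gene was Cux2, a transcription factor that is female-biased in mouse liver. Without the INT high mock, INT low mock or CR high mock array 1 gene of the list was lower. The growth hormone receptor Ghr changed by 0.21 ± 0.07 (adjusted p = 0.0878) and the repressor Bcl6 by 0.89 ± 0.43 (adjusted p = 0.231), neither called. Igfals, which holds IGF1 in a ternary complex, changed by 0.68 ± 0.21 (adjusted p = 0.0576), and was called without the CR high Wy array.

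Several genes outside the lists were among the 12 highest or 12 lowest. Susd4, a complement regulator, read 9.04, 9.31, 9.82 and 9.79 on the INT arrays, against 5.09, 6.98, 6.62 and 5.74 on the CR arrays. It was 10.4-fold higher in INT with no overlap (3.38 ± 0.38, adjusted p = 0.000148). Rarres1, a retinoic acid responsive gene, was 8.12-fold higher (3.02 ± 0.27, adjusted p = 3e-05). The sodium-calcium exchanger Slc8a1 changed by 2.49 ± 0.42 (adjusted p = 0.00257) and Adh6-ps1, annotated as an alcohol dehydrogenase pseudogene, by 2.31 ± 0.31 (adjusted p = 0.000498). On the lower side Chrna4, a subunit of the neuronal nicotinic acetylcholine receptor, read 7.51, 7.03, 6.43 and 5.22 on the INT arrays, against 9.81, 10.77, 9.40 and 10.20 on the CR arrays. It was 11.3-fold lower in INT (-3.50 ± 0.45, adjusted p = 0.000418), and the low mock INT array was the lowest of the 8. Sytl5, a synaptotagmin-like vesicle protein, was 8.25-fold lower (-3.04 ± 0.27, adjusted p = 2.98e-05) and Nipal1, of a magnesium transporter family, 4.33-fold lower (-2.11 ± 0.22, adjusted p = 6.89e-05).

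Genes for making fatty acids were lower in INT. Of 24 lipogenic genes tested, 12 were lower and 0 higher (median change -0.40), and all but Thrsp and Acacb of these 12 had INT arrays wholly below the CR arrays. Acly, which makes cytosolic acetyl-CoA from citrate, read 9.02, 9.86, 8.85 and 9.45 on the INT arrays, against 11.73, 12.04, 11.81 and 11.58 on the CR arrays. It was 5.64-fold lower (-2.50 ± 0.20, adjusted p = 1.01e-05) with a wide gap between the diets. Fasn, the fatty acid synthase, read 11.17, 11.20, 11.23 and 10.85 on the INT arrays, against 12.86, 12.85, 12.61 and 12.34 on the CR arrays. INT was below CR by about the same amount in each matched comparison, 2.93-fold (-1.55 ± 0.11, adjusted p = 6.3e-06). Acaca, the acetyl-CoA carboxylase of the cytosol, changed by -1.53 ± 0.16, Acss2, which activates acetate, by -1.27 ± 0.15, and Elovl6, which elongates palmitate, by -1.63 ± 0.15. Pnpla3, a lipid droplet protein that lipogenic factors induce, was 4.17-fold lower (-2.06 ± 0.26, adjusted p = 0.000355), and Thrsp, a nuclear protein that rises with lipogenesis, changed by -1.32 ± 0.21 with the INT high mock array within the CR range. The transcription factors themselves were not called, with Srebf1 at -0.41 ± 0.15 (adjusted p = 0.12) and Mlxipl, which encodes ChREBP, at -0.16 ± 0.11 (adjusted p = 0.413). Within the first plate 10 lipogenic genes stayed lower, and 11 to 13 without single arrays.

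The supply of NADPH and of glycolytic carbon ran in the same direction in several genes. Pgd, of the oxidative pentose phosphate pathway, read 9.03, 9.05, 9.14 and 8.87 on the INT arrays, against 10.86, 10.58, 10.95 and 10.22 on the CR arrays. It was 3.1-fold lower in INT, each array below each CR array (-1.63 ± 0.14, adjusted p = 2.53e-05). Malic enzyme Me1 changed by -1.23 ± 0.13 and transketolase Tkt by -0.60 ± 0.09, and 3 of 9 genes of this list were lower and 1, H6pd, higher. Me1 is also an entry of the lipogenic list. Of 18 genes of glycolysis and fructose use, 6 were lower and 1 higher. The lower ones included Pklr, the liver pyruvate kinase (-0.83 ± 0.09), Tkfc, which phosphorylates glyceraldehyde from fructose (-0.66 ± 0.10), and Gckr, which holds glucokinase in the nucleus (-0.56 ± 0.08). Pfkfb3, which makes fructose 2,6-bisphosphate, was the higher one (0.72 ± 0.11, adjusted p = 0.00162). Without the INT high Wy array 3 of these genes were lower.

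Of 17 glycogen genes 4 were lower and 0 higher. Ppp1r3g, a subunit that directs a phosphatase to glycogen and promotes its synthesis after meals, read 7.34, 6.67, 8.09 and 5.94 on the INT arrays, against 10.25, 10.34, 9.93 and 9.79 on the CR arrays. The INT arrays were spread widely but stayed under every CR array, a difference of 8.38-fold (-3.07 ± 0.34, adjusted p = 0.000131). The branching enzyme Gbe1 changed by -0.54 ± 0.06 (adjusted p = 0.000216), and Pygl and Ugp2 were the remaining called genes. Omitting the INT low Wy, INT low mock, CR high Wy, CR high mock or CR low Wy array left 2.

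Of the lists, cholesterol synthesis had the largest share of lower genes, 12 of 17 tested with 0 higher (median -0.72). Pmvk, the phosphomevalonate kinase, read 7.73, 7.59, 7.66 and 7.70 on the INT arrays, against 9.25, 9.66, 9.02 and 9.47 on the CR arrays. The INT arrays were almost level and all under the CR arrays, a difference of 3.2-fold (-1.68 ± 0.17, adjusted p = 6.89e-05). Lss, the lanosterol synthase, read 8.60, 8.77, 9.04 and 9.13 on the INT arrays, against 10.48, 10.76, 10.04 and 10.49 on the CR arrays. It was 2.95-fold lower with no overlap (-1.56 ± 0.18, adjusted p = 0.000142). Mvd, which decarboxylates mevalonate diphosphate, read 6.83, 6.23, 7.02 and 7.31 on the INT arrays, against 8.21, 8.16, 7.65 and 7.45 on the CR arrays. Here the low mock mice of both diets stood close together (-1.02 ± 0.25, adjusted p = 0.0211), and the call was lost without the INT high mock, CR high mock or CR high Wy array (-1.22 to -0.80 over all 8 such fits) and within the first plate (adjusted p = 0.254). Fdps changed by -0.97 ± 0.11, Dhcr7 by -0.90 ± 0.09 and Sc5d by -0.66 ± 0.09, 3 enzymes further along the pathway. The count of the list moved with single arrays. Within the first plate 5 genes were lower, without the INT high mock, CR high Wy or CR high mock array also 5, and without the INT high Wy array 6. A separate list of sterol sensing, uptake and export had 3 of 13 genes lower and 1, Lrp1, higher, and 0 of them were called within the first plate. Its lower genes were Insig1, which retains the SREBP complex in the endoplasmic reticulum and is itself an SREBP target (-0.99 ± 0.18, adjusted p = 0.00397, first plate -0.82 with adjusted p = 0.1), Lpcat3 and Npc2.

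A motif of SREBP target promoters is CCAAT, bound by NF-Y, which works beside SREBP. Read on either strand (CCAAT or ATTGG) in the 250 bases upstream, it stood in all 14 cholesterol synthesis genes that the promoter table held, in 14 of 21 lipogenic genes (66.7%) and in 37.5% of all 27025 genes. Of these 14 cholesterol genes 10 were called, so the motif did not set called genes apart from uncalled ones. The sterol response element, sought as TCACNCCAC, stood in 1 of the 14 and 1 of the 21 genes, against 1.2% of all genes. The E-box CACGTG stood in 3 of the 14 (21.4%) and 4 of the 21 (19.0%), against 6.9%. In Fasn a CCAAT and an ATTGG overlap. The STAT motif TTCNNNGAA stood in 1 of the 14 and 0 of the 21 genes, against 8.1% of all genes. Among the sex-biased genes that the promoter table held, it stood in 2 of 18 male-biased (11.1%) and 1 of 23 female-biased genes (4.3%). The match is a description of letters and shows no binding. The 100 bases upstream of a pair of cholesterol genes and of Fasn are shown because these genes carry the lower levels described above, with the motif in capitals (RefSeq, GRCm38.p6, 5′ to 3′ on the gene's strand).
Mvd, chr8:122443423-122443522, minus strand: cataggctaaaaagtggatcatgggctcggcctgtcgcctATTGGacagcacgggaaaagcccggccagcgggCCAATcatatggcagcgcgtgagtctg
Lss, chr10:76531505-76531604, plus strand: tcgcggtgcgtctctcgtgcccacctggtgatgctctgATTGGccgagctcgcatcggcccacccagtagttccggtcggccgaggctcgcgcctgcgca
Fasn, chr11:120824548-120824647, minus strand: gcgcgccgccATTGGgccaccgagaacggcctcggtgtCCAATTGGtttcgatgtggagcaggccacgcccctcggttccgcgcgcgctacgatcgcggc

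Of 17 gluconeogenic genes 6 were lower in INT, 2 higher and 9 not called, with a median change of -0.13. Ppargc1a, the coactivator that turns on gluconeogenesis, read 7.86, 8.87, 7.72 and 8.64 on the INT arrays, against 9.03, 10.54, 9.72 and 10.67 on the CR arrays. Mock arrays were above Wy arrays in both diets, the INT high mock value came close to the lowest CR value, and INT was 3.28-fold lower (-1.71 ± 0.18, adjusted p = 9.07e-05). The aminotransferases Got1 (-1.21 ± 0.22) and Tat (-0.76 ± 0.15) and Klf15, a factor that promotes amino acid breakdown in fasting (-0.57 ± 0.13), were lower. The enzymes G6pc (-0.49 ± 0.12, adjusted p = 0.0215) and Pck1 (-0.33 ± 0.08, adjusted p = 0.0154), which carry the last and an early step, fell less. The call for G6pc was kept in 3 of 8 fits that left out 1 array (-0.62 to -0.40), and that for Pck1 was lost without the CR high Wy array. Pcx, which carboxylates pyruvate (0.34 ± 0.07), and Ldhd, which oxidises D-lactate (0.54 ± 0.07), were higher, and Pcx was not called within the first plate (adjusted p = 0.114). Foxo1, which links insulin to these genes, changed by -0.13 ± 0.09 (adjusted p = 0.426). Of 18 genes of insulin signalling and FOXO targets, Igfbp1 and Irs2 were lower and Pik3r1 and Grb14 higher, and none of the 4 was called within the first plate.

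Among 29 genes of amino acid breakdown 4 were lower and 1, Kmo, higher. Acmsd, which steers tryptophan carbon away from NAD synthesis, read 6.78, 7.51, 6.59 and 6.53 on the INT arrays, against 8.00, 8.95, 8.05 and 9.63 on the CR arrays. The CR arrays were all higher (3.5-fold lower in INT, -1.81 ± 0.28, adjusted p = 0.00136). Of 7 urea cycle genes 4 were lower, namely Slc25a15, the mitochondrial ornithine carrier (-0.57 ± 0.11), Asl, Arg1 and Cps1, a count of 1 without the INT low Wy, INT low mock, CR high mock, CR low Wy or CR low mock array. In methionine and one-carbon metabolism 3 of 15 genes were lower, with Mthfd1l of mitochondrial folate use at -1.04 ± 0.12 (adjusted p = 0.000131), and Bhmt was higher. Without the CR high Wy or the CR low mock array 1 gene of that list was lower.

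**Figure D2:**
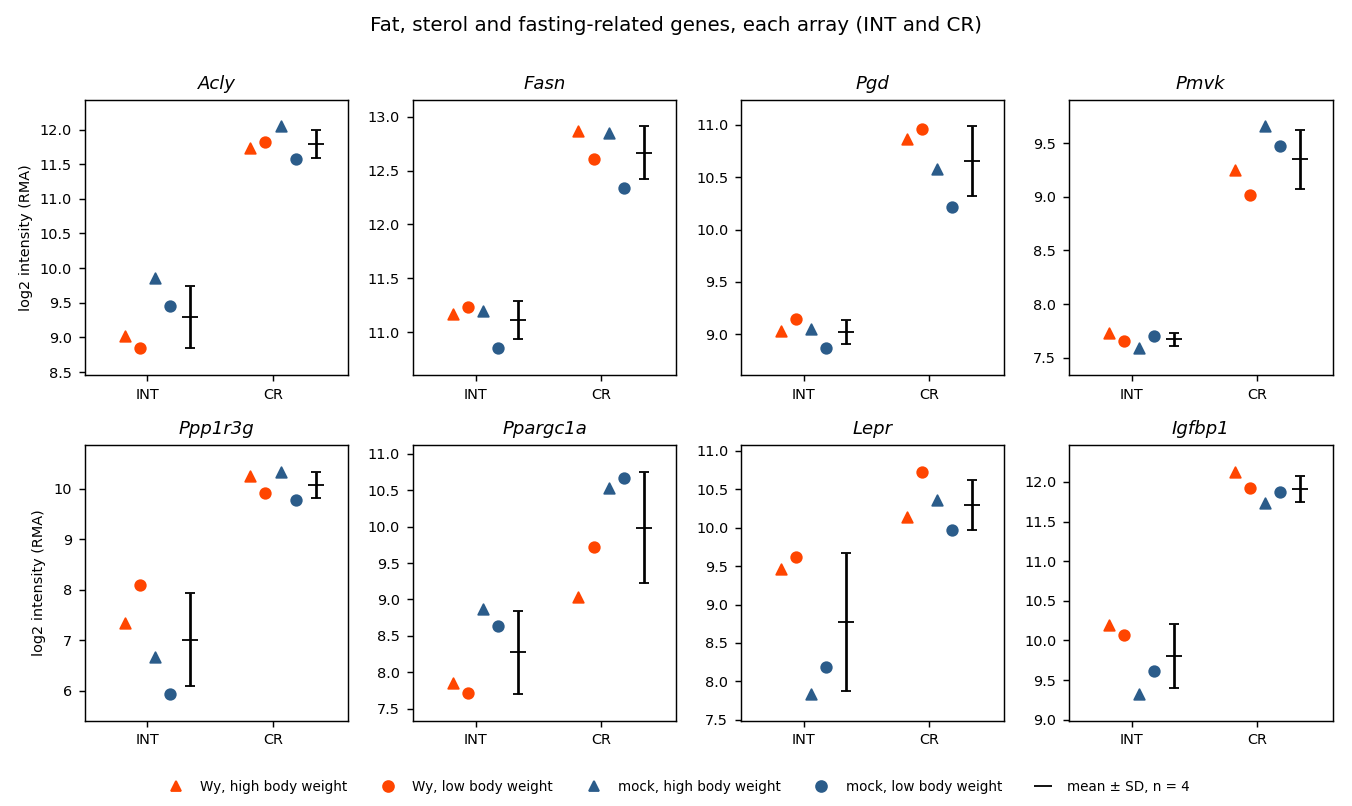
Log2 intensity of 8 metabolic genes on the 4 INT and the 4 CR arrays, drawn as each array's point with the mean ± SD of the diet, triangles for high and circles for low body weight, orange for Wy and blue for mock. INT points lie below all CR points in every panel, by 2.50 log2 units in the mean for Acly and by 1.53 for Lepr, where the Wy points of INT approach those of CR.

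Fatty acid oxidation under PPARα was slightly higher in INT, with 9 of 22 genes higher and 0 lower (median 0.24). The diets overlapped in all 9. Crot, a peroxisomal carnitine acyltransferase, read 12.52, 12.16, 12.59 and 12.46 on the INT arrays, against 12.27, 11.39, 12.20 and 11.64 on the CR arrays. Wy arrays were above mock arrays within each diet. Within mock mice INT was above CR by more than within Wy mice (0.80 and 0.32), and the change over both was 0.56 ± 0.10 (adjusted p = 0.00382). Acaa1a, a peroxisomal thiolase (0.52 ± 0.10), and Eci2, an enoyl-CoA isomerase (0.45 ± 0.08), were similar in size. The list median was 0.11 within Wy and 0.37 within mock mice. In the first plate 1 gene of the list was called, which was neither Acaa1a (adjusted p = 0.0717) nor Eci2 (0.0575), and without the INT high mock, INT low mock, CR high mock or CR low mock array 4 were. Ppara itself changed by 0.14 ± 0.10 (adjusted p = 0.403). Of 26 other PPARα targets, Vnn1, a pantetheinase, was higher (1.26 ± 0.32, adjusted p = 0.0237), a call kept in 4 of 8 fits that left out 1 array (0.83 to 1.55) and lost within the first plate (adjusted p = 0.0761), and Cd36 was lower.

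Lipid droplet genes were partly higher. Fitm1, which helps droplets to form, read 10.61, 10.70, 10.21 and 10.51 on the INT arrays, against 9.34, 8.38, 8.90 and 7.92 on the CR arrays. It was 3.67-fold higher with no overlap (1.88 ± 0.18, adjusted p = 5.5e-05). Mgll, the monoacylglycerol lipase (0.63 ± 0.11), and the lipases Lipe and Pnpla2 were the other called genes of 21, with 0 lower, and without the INT high mock, CR high Wy, CR high mock or CR low mock array 2 were called. Cidec, which enlarges droplets, read 11.21, 8.33, 10.53 and 6.68 on the INT arrays, against 8.51, 6.01, 9.17 and 5.82 on the CR arrays. Wy arrays were far above mock arrays in both diets, and the diet difference was not called (1.81 ± 0.61, adjusted p = 0.0812). Triglyceride synthesis had 4 of 13 genes lower and 0 higher. These were Lpin1 (-1.24 ± 0.25) and Lpin2 (-0.50 ± 0.09, not called within the first plate, adjusted p = 0.0991), phosphatidate phosphatases, Gpam, the first acyltransferase (-1.04 ± 0.12), and Tm6sf2, which loads lipid onto lipoproteins (-0.77 ± 0.09). In fatty acid uptake and activation, Fabp2, a fatty acid binding protein (0.89 ± 0.13), and Acsm1 (0.46 ± 0.07) were higher, and Acsl5 (-0.40 ± 0.08), Acsl4, Vldlr and Cd36 lower. None of 16 apolipoprotein and lipoprotein assembly genes was called.

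Bile acid synthesis had 5 of 19 genes higher and 1 lower. Besides Cyp7b1 of the alternative pathway, Scp2, a sterol carrier and thiolase (0.43 ± 0.06), Nr1h4, which encodes the bile acid receptor FXR (0.39 ± 0.07), Hsd3b7 and Amacr were higher. Without the INT high mock or the CR low mock array 3 genes were higher. Cyp39a1, a hydroxylase of 24-hydroxycholesterol, read 9.70, 9.65, 9.57 and 9.76 on the INT arrays, against 10.54, 10.76, 10.37 and 11.04 on the CR arrays. It was lower on every INT array (2.01-fold, -1.01 ± 0.11, adjusted p = 9.98e-05). Of 16 bile and organic anion transporters 3 were higher and 3 lower. Slc51b, a subunit of the basolateral bile acid exporter, was 3.02-fold lower (-1.59 ± 0.24, adjusted p = 0.00113), and Abcg2, a canalicular exporter, was higher (0.74 ± 0.10, adjusted p = 0.000586).

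Drug-metabolising genes moved in both directions. In the Cyp2c and Cyp3a families 6 of 15 genes were lower and 0 higher, Cyp2c38 (-1.19 ± 0.14) and Cyp2c68 (-0.77 ± 0.11) among them, and without the INT low mock, CR high Wy or CR low mock array 3 were. Of 24 other P450, sulfotransferase and Fmo genes, 7 were higher and 7 lower. Sult2a8 (2.04 ± 0.46) and Sult5a1 (1.65 ± 0.23), sulfotransferases, and Cyp2d40 (0.91 ± 0.15) were higher, and the lower ones were led by the Cyp2b genes. Sult2a8 (adjusted p = 0.126) and Cyp2d40 (0.082) were not called within the first plate. Of 13 xenobiotic receptor and CAR target genes 2 were higher, Aldh1a1 and Alas1, and 2 lower, Cyp2b10 and Cyp2c55, of which 0 to 2 in each direction were called without single arrays. The receptor gene Nr1i3 was not analysed here. Of 18 NRF2 and glutathione genes 7 were lower and 0 higher (median -0.39). Nqo1, a quinone reductase, read 5.79, 6.17, 5.74 and 6.24 on the INT arrays, against 7.80, 6.96, 7.14 and 7.58 on the CR arrays. The INT arrays were all lower (2.61-fold, -1.38 ± 0.25, adjusted p = 0.00395), and the glutathione transferases Gstm3 (-1.08 ± 0.20) and Gsta4 (-1.04 ± 0.19) and the glucuronate maker Ugdh (-0.73 ± 0.14) followed. Within the first plate 1 gene of the list was lower, and Nqo1 (adjusted p = 0.105), Gstm3 (0.138) and Ugdh (0.12) were not called.

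Of 24 interferon-induced genes 4 were higher and 1 lower (median 0.39), against 5.57% higher and 4.28% lower over all genes. Tap1, which loads peptides for MHC class I, read 7.72, 8.39, 7.59 and 8.43 on the INT arrays, against 6.70, 7.06, 7.14 and 6.99 on the CR arrays. Mock arrays were highest among INT and every INT array was above every CR array (2.08-fold, 1.06 ± 0.16, adjusted p = 0.00109). Irf9 was higher (0.55 ± 0.11), with Psmb9 and Irgm1, and Irf7 lower (-0.80 ± 0.17, adjusted p = 0.0109). Without the INT low mock or the CR high mock array 2 were higher. T and NK cell markers had 1 of 6 genes higher, Cd4 (0.69 ± 0.14, adjusted p = 0.00801), B and plasma cell markers 1 of 6, Cd79a, and monocyte-derived macrophage markers 1 of 10 lower, Cd9 (-0.62 ± 0.14, adjusted p = 0.0137). Their part in these results was not tested. In the first plate Irf7 (adjusted p = 0.161), Cd9 (0.188) and Saa4 (0.0662) were not called. Among 22 acute phase genes Saa4, a serum amyloid A of lipoproteins, was higher (0.71 ± 0.13, adjusted p = 0.00344). Saa2 read 11.62, 8.40, 7.42 and 8.07 on the INT arrays, against 5.28, 5.60, 8.77 and 7.27 on the CR arrays. It spread over several log2 units within each diet and was not called (2.15 ± 0.98, adjusted p = 0.197), and neither was Orm2 (-1.93 ± 0.62, adjusted p = 0.0667). None of 7 MHC class II genes, of 14 liver chemokines or of 12 genes in 3 panels used for quantitative PCR (lipid droplet, inflammation and fibrosis, macrophage) was called, with panel changes of -0.19 to 2.15.

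Some single genes of smaller lists stood out. Bhlhe41, a repressor in the clock, was 2.55-fold higher (1.35 ± 0.18, adjusted p = 0.000566) and Noct, nocturnin, 2.07-fold lower (-1.05 ± 0.13, adjusted p = 0.000333), while of 16 core clock genes Bhlhe41 was called higher and Per1 lower. Inhbe, a hepatokine, was higher (1.47 ± 0.25, adjusted p = 0.00262), as was Dio1, a deiodinase that thyroid hormone induces (1.00 ± 0.20, adjusted p = 0.00716). Alas2, the erythroid enzyme of haem synthesis, read 9.51, 10.01, 9.63 and 9.89 on the INT arrays, against 8.30, 8.40, 8.20 and 8.33 on the CR arrays. All INT arrays were above all CR arrays (2.74-fold, 1.45 ± 0.14, adjusted p = 5.17e-05), 1 of 2 erythroid markers tested. The other marker went the other way (-0.34) and was not called, except as lower without the CR low Wy array. Nt5e, an ecto-nucleotidase, was 3.7-fold lower (-1.89 ± 0.26, adjusted p = 0.000615), the 1 called gene of 14 pericentral hepatocyte genes. Rdh11, a retinal reductase, was lower (-1.40 ± 0.20, adjusted p = 0.000801). Cyp26a1, which degrades retinoic acid, changed by -3.50 within Wy and -0.16 within mock mice and was not called over both (adjusted p = 0.077). Dusp1, a phosphatase that glucocorticoids induce, was lower (-1.08 ± 0.23, adjusted p = 0.009). Inhbe (adjusted p = 0.0563), Dio1 (0.0747) and Dusp1 (0.0834) were not called within the first plate. Glucocorticoid response genes had 4 of 17 lower and 0 higher, retinoid genes 3 of 20 lower and 3 higher, thyroid hormone response genes 2 of 11 lower and 1 higher, and hepatokines 1 of 17 lower and 2 higher. Endoplasmic reticulum chaperones (2 of 20 lower and 1 higher), iron and haem genes (2 of 21 lower and 1 higher) and autophagy and lysosome genes (2 of 20 lower and 0 higher) followed, against 9.85% called over all genes. Called in either direction were genes of the respiratory chain (1 of 24), proteasome (1 of 21), heat shock (2 of 12), integrated stress response (1 of 22), extracellular matrix (1 of 27) and cell cycle (0 of 18) lists.

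**Figure D3:**
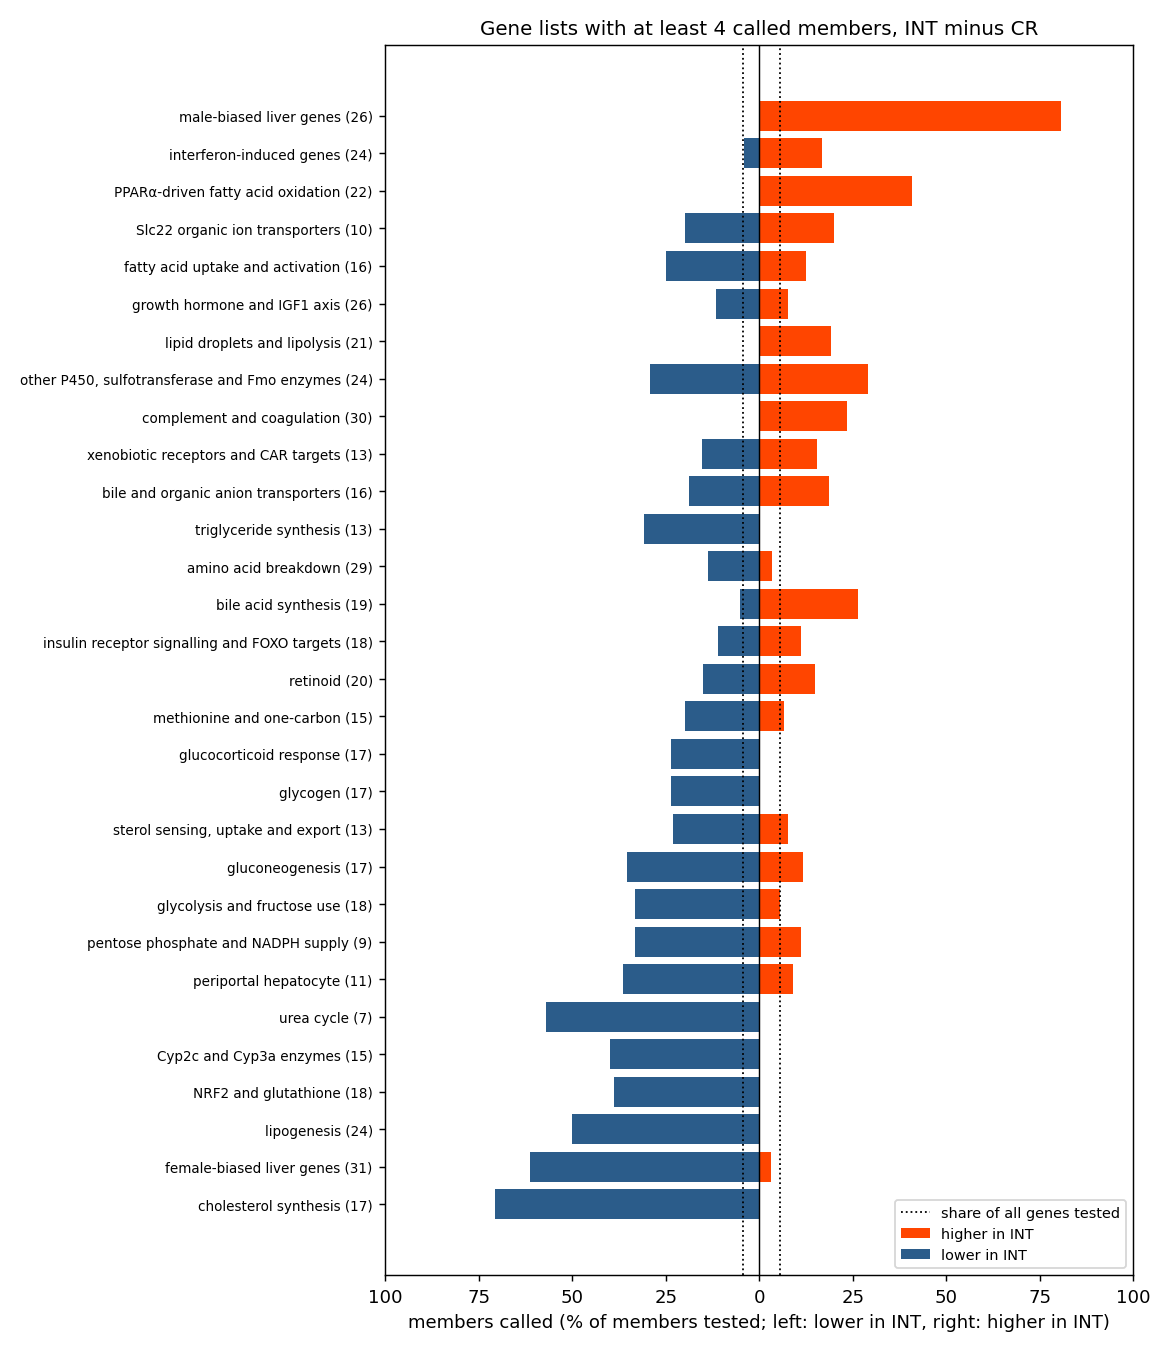
Share of the members tested of each gene list that was called lower (left, blue) or higher (right, orange) in INT than in CR, for lists with at least 4 called members and the number tested in brackets, with dotted lines at the shares over all genes. The bars reach farthest for the male-biased genes, 21 of 26 higher, and for cholesterol synthesis, 12 of 17 lower.

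Set beside the mean of C and MF, INT and CR were not at the same distance. These 2 comparisons share the C and MF arrays, and each also shares its own diet with INT minus CR, so they are no independent evidence. INT differed from C and MF in 1 of 14275 genes (0.00701%), with 1762 at an unadjusted p under 0.05. CR differed in 2435 genes (17.1%), of which 1074 were higher (7.52%) and 1361 lower (9.53%). The INT gene was Med12l, a Mediator subunit paralogue, which was higher in INT than in C and MF (0.68, adjusted p = 0.00708), higher in CR than in C and MF (1.06), and lower in INT than in CR (-0.38 ± 0.09, adjusted p = 0.0174). The last of these calls was lost without the INT high mock or the CR low mock array and within the first plate (adjusted p = 0.153). For male-biased genes the median difference from C and MF was 0.22 in INT and -0.84 in CR, and for female-biased genes -0.26 in INT and 0.55 in CR. For lipogenesis it was -0.28 in INT and 0.30 in CR, for cholesterol synthesis 0.08 in INT and 0.76 in CR, and for fatty acid oxidation 0.10 in INT and -0.15 in CR. Of these lists CR had 19 male-biased genes lower and 1 higher, 15 female-biased genes higher and 1 lower, 12 lipogenic genes higher and 2 lower, 14 cholesterol genes higher and 0 lower, and 9 oxidation genes lower and 1 higher, whereas INT had 0 called in each. Acly averaged 9.54 ± 0.42 in MF and 9.92 ± 0.30 in C, and Pmvk 7.59 ± 0.27 in MF and 7.63 ± 0.41 in C (SD, n = 4 each).

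**Figure D4:**
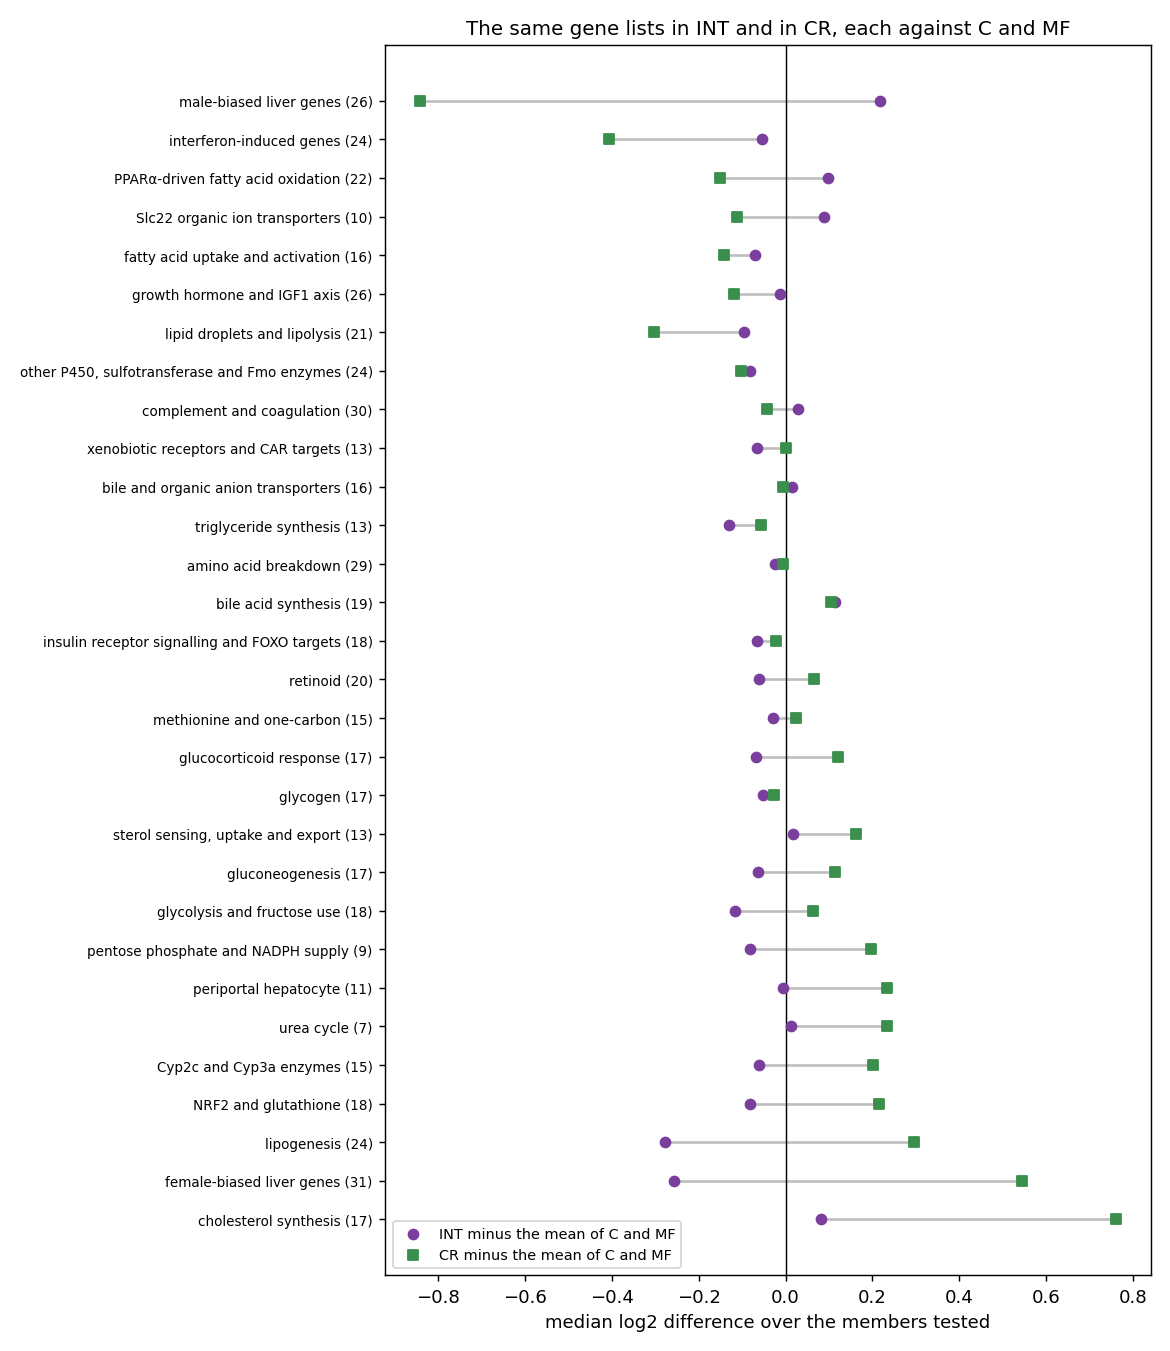
Median log2 difference of the members of each gene list from the mean of the C and MF arrays, as purple circles for INT and green squares for CR, with the number of members tested in brackets. The INT point lies nearer 0 than the CR point for the male-biased (0.22 in INT and -0.84 in CR), female-biased (-0.26 in INT and 0.55 in CR) and cholesterol synthesis (0.08 in INT and 0.76 in CR) lists.

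Interaction terms asked whether the diet difference itself depended on Wy or on the body weight class. For treatment 0 genes were called, with 883 at an unadjusted p under 0.05 and a smallest adjusted p of 0.0671. That gene was Catsper2, a sperm ion channel gene, at -0.41 within Wy and 0.66 within mock mice. Cpne5, a calcium-binding copine, read 8.68, 4.26, 8.94 and 4.34 on the INT arrays, against 4.52, 4.34, 4.95 and 4.30 on the CR arrays. Only the Wy arrays of INT were high (4.07 within Wy and -0.02 within mock, interaction 4.09 ± 0.68, adjusted p = 0.694). Socs2, a growth hormone feedback inhibitor, gave 1.81 within Wy and -0.95 within mock mice, and over both treatments 0.43 ± 0.45 (adjusted p = 0.617). Fitm1 gave 1.29 and 2.46, and Aaas, a nuclear pore protein, -0.41 and 0.60 within Wy and mock mice. For body weight class 0 genes were called as well, with 907 at an unadjusted p under 0.05 and a smallest adjusted p of 0.202. Rassf6 differed by -1.36 in high and -0.38 in low body weight mice, Mindy2 by -1.57 and -0.74, and Atoh8 by 0.34 and -0.66. Cplx3 (-0.38 and 0.33) and Flvcr1 (0.39 and -0.30) had smaller differences of opposite sign. With the high body weight INT arrays on their own plate, body weight class and plate cannot be told apart here.

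**Figure D5:**
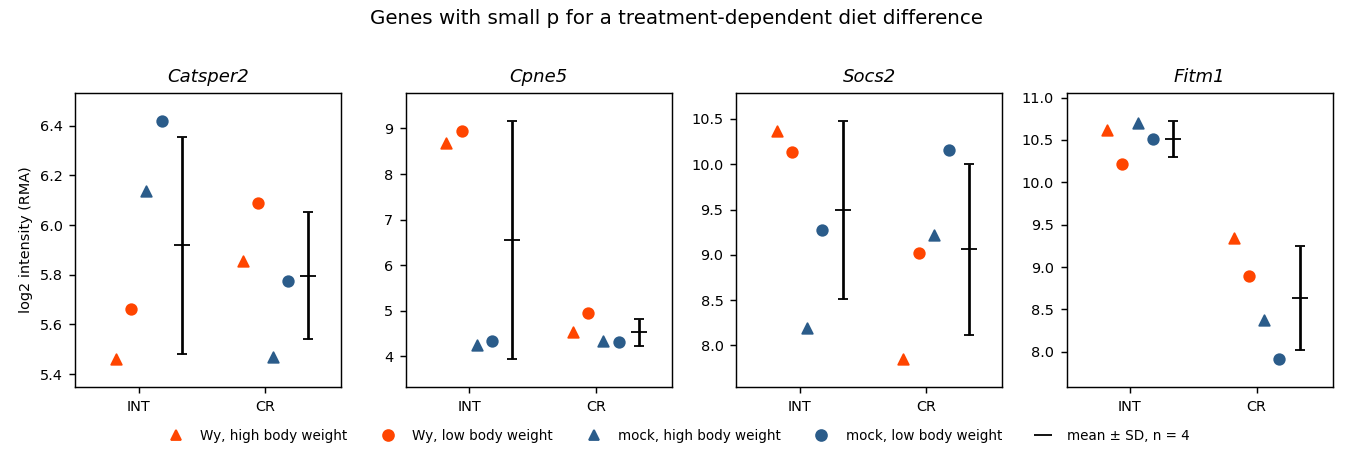
Log2 intensity of 4 genes with small p for a diet difference that depends on treatment, on each INT and CR array with the mean ± SD of the diet, triangles for high and circles for low body weight, orange for Wy and blue for mock. For Cpne5 the Wy points of INT stand alone, and for Socs2 the Wy points are higher in INT while the mock points are lower, but no interaction passed the test across all genes.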

How the data were processed

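Liver RNA was measured on Affymetrix Mouse Gene 1.1 ST arrays. The deposited values are log2 intensities that the authors made with robust multi-array averaging. RMA subtracts background, gives all arrays 1 distribution and combines the probes of a transcript cluster, so a shift common to most genes of an array is removed. Its version was not given in the sources used here. They ran from 1.84 to 13.7 over 35556 transcript clusters, of which 21218 had 1 gene in the platform annotation, 1881 had several and 12457 were not listed. Of several clusters for a gene (1386 of 18820 genes) the one with the highest mean was kept. Following the study's methods, genes with an intensity over 20 (log2 4.32) on 5 or more arrays were tested, 14275 in all, and 4545 were left out. Each diet has 4 arrays, so a gene over that intensity in 1 diet alone could not be tested.

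All 16 arrays were fitted with limma 3.58.1 in R 4.3.3 on diet, treatment and body weight class (10 residual degrees of freedom), with Benjamini-Hochberg adjustment over all tested genes and a call at an adjusted p under 0.05. Interactions came from a model of diet by treatment or diet by body weight class (7 degrees of freedom). Each array is 1 mouse, so p-values measure the spread between these mice, and the number of arrays limits the precision. A fold against a diet with all 4 values under the filter is a bound. Here the fit was repeated with the plate as a term or the first plate alone, the matched pair as a block, other normalizations, filters and cluster choices, and without each array in turn.

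The 53 lists (844 genes, 826 tested, 197 called) and the rule for naming genes were chosen with earlier results of these data known. A gene can be an entry of several lists, so the counts of different lists are not separate. The rule took the 12 highest rises and 12 deepest falls with 1 sign in all 4 matched comparisons, up to 6 called members per list with the smallest p and the first in the opposite direction, regulators of lists, the genes of 3 panels that the study measured by PCR and, for each interaction, the 5 with the smallest p. The text departs from it. Called genes whose call did not hold without single arrays, and weaker members of lists with few calls, are mostly named without values, and the panels are given as counts. Genes named without values were chosen after their values were seen. The scripts were tested on simulated data. Promoters are from the RefSeq table (GRCm38.p6), and motifs were sought on both strands of the 250 bases upstream. Figures were drawn with matplotlib 3.10.9 in Python 3.11.15.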

Additional observations from a re-analysis of the deposited data

Results flagged for a closer look

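In groups of 4 arrays a value was set aside for a closer look where the gap between the highest or lowest array and its neighbour, as a share of the group's range, exceeded Dixon's critical value. Chance alone marks about 1 in 20 groups, so about 12.9 of the 258 examined (129 named genes in 2 diets), and 12 were found.

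On the INT arrays, the high Wy array stood apart for Cyp2b13 (3.59), where all INT values were under the filter, Fabp2 (11.05), Igf1 (12.22) and Mlxipl (10.57). The INT low mock array stood apart for Fasn (10.85) and Irf9 (9.93), and the INT high mock array for Foxo1 (9.81). On the CR arrays, the low mock array stood apart for Dusp1 (11.37), G6pc (13.06), Noct (9.48) and Tkfc (11.88), and the high mock array for Med12l (5.90). The CR low mock and the INT high Wy array thus held 4 of these values each.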

How the results depend on the processing

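Of 1406 genes called in INT minus CR, the fit on only these 8 arrays called 755 and shared 705, plate as a term 336 and shared 315, and the first plate alone 378 and shared 342. Within mock arrays 490 were called, within Wy arrays 175 and within low body weight arrays 345. The matched pair as a random block gave 1159, and other scalings, filters, cluster choices and moderation 1295 to 1440. Leaving out single arrays gave 865 to 1251. The replicate numbers mark treatment and body weight class, and the Wy and mock mice of a class did not deviate together (correlation 0.0839 in INT and -0.169 in CR). Genes whose difference depended on treatment numbered 0, and 0 with the pair as a fixed block, 1 with only the 8 arrays and 0 to 1 without single arrays (1 without the INT high Wy or CR low Wy array). For body weight class 0 to 2 were called without single arrays (2 without the INT low mock or CR low Wy array, 1 without the INT high mock array). INT against C and MF gave 0 in the first plate, 3 after centring, 3 with trend and robust moderation and 0 to 4 without single arrays (0 without the INT high Wy or INT low Wy array, 4 without the INT low mock array). CR against C and MF gave 1459 (without the CR high Wy array) to 2539. After the data were seen, list counts were repeated under the same settings.

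The 117 called genes among the 129 with values kept direction and call in 2212 of 2453 alternatives, lost the call in 241 and reversed in 0. These alternatives are not separate, because they reuse the same arrays, and the plate term and the first plate alone gave the same changes. Of the 117 calls, 31 were lost in the first plate, 33 with the plate term, 39 within mock, 67 within Wy and 37 within low body weight arrays. Of the 129, 86 were called within the first plate, 84 with plate as a term (Slc8a1, Lepr, G6pc and Cd4 lost their call with that term, and Eci2 and Inhbe kept it, unlike in the first plate alone) and 110 in all 8 fits without single arrays. Uncalled results that changed sign were few. Socs2 was -0.95 within mock arrays and -0.085 without the INT high Wy array (-0.085 to 0.84 without single arrays), Ppara -0.046 within Wy arrays and Saa2 -0.27 within low body weight arrays. The causes were not tested. Cidec was called without the CR low Wy array (2.24, adjusted p = 0.0471), Orm2 without the CR high mock array (-2.40, 0.0364), Cyp26a1 without the CR low mock array (-2.39, 0.0255) and Igfals without the CR high Wy array (0.86, 0.0243). With only the 8 arrays Srebf1 (-0.41, adjusted p = 0.0306), Cidec (1.81, 0.0166) and Igfals (0.68, 0.0217) were called. Within Wy arrays Socs2 (1.81, adjusted p = 0.0421) and Cyp26a1 (-3.50, 0.0137) were called. Within low body weight arrays Orm2 (-2.865, adjusted p = 0.0263) and Igfals (0.74, 0.0497) were.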
